A study of Apis mellifera with 8 samples.

Results

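Kr-h1, Jhe and JHBP-1 are 3 honey bee genes tied to juvenile hormone, and their RNA was measured in the heads of queen and worker larvae. They were chosen by name, as the genes that RefSeq calls Kr-h1, Jhe and JHBP-1, and make up 3 of the 9161 genes and 4 of the 28739 transcripts in the files. Kr-h1 has 2 measured transcripts, NM_001242470 (1756 bases) and NM_001011566 (1503 bases). Jhe has 1, NM_001011563 (2084 bases), and JHBP-1 has 1, NM_001011640 (991 bases). RefSeq lists 4 accessions for Kr-h1, of which 2 were measured here.

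Juvenile hormone is a lipid hormone made in the corpora allata, a pair of glands behind the insect brain, and in honey bee larvae a high titer goes with queen development. In insects it travels in the blood bound to carrier proteins, binds the receptor Met inside the cell, and switches on the zinc finger transcription factor Kr-h1, its best known early target, which holds back metamorphosis. Juvenile hormone esterase, encoded by Jhe, inactivates the hormone by cutting its methyl ester, and JHBP-1 is named as a juvenile hormone binding protein.

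The study compared the 2 female castes at 96 h of larval life, when the feeding of the larvae has already parted their development. Both groups are Apis mellifera females, and no transgene, strain or drug is named for either. Queens (96hQ) were raised by grafting larvae into queen cups, and workers (96hW) were taken from marked positions on brood frames, so rearing and caste cannot be told apart. Each library is the poly(A) RNA of 1 larval head, 4 heads per caste. For the heads dissected for chromatin, the paper lists the brain, the corpora allata, mouthparts, cuticle and some fat body. It gives no contents for the heads used for RNA. The deposited estimated counts summed to between 22057972 and 23344818 in 96hQ and between 19139730 and 21848474 in 96hW. All 3 genes passed the filter on low counts, which asks for 5 counts or more in no fewer than 4 libraries. Positive log2 fold changes mark higher levels in 96hQ, and a gene is called at an adjusted p under 0.01 from edgeR's quasi-likelihood test over 8151 genes. The p-values measure the spread from head to head, which includes that of dissection and library preparation.

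A pair of libraries stood apart from the others of their caste. In 96hW replicate 1 the fat body markers (6 genes: 4 hexamerins, Vg and Tsf1) summed to 218451 normalized counts. The other worker heads held 1650048 to 2063745 and the queen heads 251979 to 517342. In the sum of 96hW replicate 1, HEX70b held 82542, Hex110 82987 and Vg 11.8. Tsf1 was not low in that head, as the geometric mean of the other worker heads was 0.87 of its value there. In 96hQ replicate 3 the cuticle markers (27 genes) summed to 1632534, against 623881 to 890607 in the other queen heads and 211461 to 402132 in the workers. Neuron markers (6 genes) lay between 2303 and 3645 in 96hQ and between 4662 and 4844 in 96hW, and muscle markers (7 genes) overlapped between the castes, at 38605 to 94944 in 96hQ and 57731 to 87327 in 96hW. None of these markers was at 0 in every head. The gene matched to Jhamt, the methyltransferase that marks the corpora allata, had no paired transcript and was not analysed here, and no silk gland name matched a gene. In whole heads, fewer cells of a type and less RNA per cell cannot be told apart.

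Kr-h1 was higher in queen heads. It read 888.2, 1107, 2588 and 1084 normalized counts in 96hQ replicates 1 to 4 and 276.0, 383.7, 330.4 and 517.5 in 96hW replicates 1 to 4. Every queen head lay above every worker head, and the queen that stood highest was replicate 3, the one rich in cuticle RNA. The queen mean was 1417 ± 787 and the worker mean 376.9 ± 103.5 (SD over 4 heads per caste). The fitted log2 fold change was 1.91 ± 0.37 (SE), or 3.75-fold, with an adjusted p of 0.00977 from edgeR. Kr-h1 was the one gene of the 3 that was called. Across all genes tested, 8.61% were called, 5.21% as higher in 96hQ and 3.40% as higher in 96hW. An exact two-sided permutation test on Kr-h1 alone gave p = 0.0286, the smallest that 4 against 4 heads allow. Castes that do not overlap were found in 31.9% of all genes tested, so that feature of Kr-h1 is common in these data.

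The call of Kr-h1 lay just inside the threshold and moved with single libraries, while its direction did not. With each library left out in turn, the log2 fold change ran from 1.45 to 2.10 and the adjusted p from 0.00411 to 0.0323 in edgeR. Of these 8 fits, 1 called the gene, the fit without 96hQ replicate 3, which had the smallest fold change and the smallest adjusted p (1.45 and 0.00411). Without 96hW replicate 1 the log2 fold change was 1.79 with an adjusted p of 0.0259. With both libraries left out it was 1.32, with an adjusted p of 0.00579. The cuticle markers and Kr-h1 were both highest in 96hQ replicate 3, where Kr-h1 stood 2.53-fold over the geometric mean of the other queens. Kr-h1 was called without that head too. Over all 8 heads, cuticle markers were higher and neuron markers lower in every queen head than in any worker head, and the part of either in the caste difference of Kr-h1 was not tested.

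**Figure D1:**
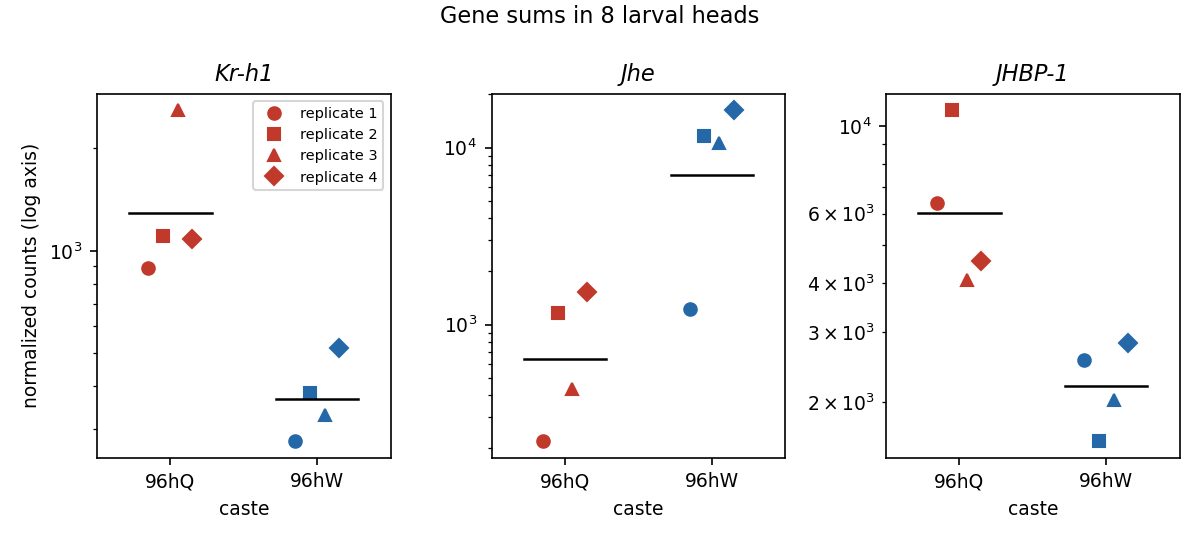
Normalized counts of Kr-h1, Jhe and JHBP-1 (1 panel each, log axes that differ between panels) in 4 queen heads (96hQ, red) and 4 worker heads (96hW, blue), with a marker shape per replicate and a black line at the geometric mean of the caste. Kr-h1 and JHBP-1 do not overlap between castes, as in 31.9% of all genes tested. The Jhe value of 96hW replicate 1 (1223) lies among those of the queens (219.0 to 1530).

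The 2 transcripts of Kr-h1 had unlike values. NM_001242470 carried most of the RNA, with 898.2, 852.2, 2584 and 996.4 normalized counts in 96hQ replicates 1 to 4 and 213.0, 278.6, 279.1 and 511.7 in 96hW replicates 1 to 4. For this transcript no queen head fell within the worker range. In the fit of 20768 transcripts its log2 fold change was 2.05 (SE 0.45) with an adjusted p of 0.0346 from edgeR, short of the threshold. The fit called 1.22% of all transcripts and 0 of the 4 transcripts of these genes, and all but NM_001011566 had an unadjusted p under 0.05, as did 23.5% of all transcripts. DESeq2 called 3 of the 4, and 11.0% of all transcripts.

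NM_001011566, the shorter transcript, was present in some heads of each caste and listed at 0 in others. It had 0, 281.4, 4.47 and 108.7 normalized counts in 96hQ replicates 1 to 4 and 57.7, 100.3, 47.3 and 0 in 96hW replicates 1 to 4. The castes overlapped, with 1 head of each listed at 0 and 96hQ replicates 2 and 4 above every worker head. Its log2 fold change of 0.94 had an SE of 1.70 and an adjusted p of 0.808 from edgeR, and its sign turned to -0.44 without 96hQ replicate 2. These are values that kallisto shares out between overlapping transcripts, and the error of that sharing was not measured.

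The share of NM_001011566 in the TPM (a level per length, scaled to a fixed sum per library) of Kr-h1 was 0%, 28.2%, 0.212% and 11.5% in 96hQ replicates 1 to 4. In 96hW replicates 1 to 4 it was 24.3%, 29.9%, 16.9% and 0%. Of the gene's estimated counts, rather than its TPM, a count of 0 allows a share of up to 0.319% in 96hQ replicate 1 and up to 0.606% in 96hW replicate 4, for counting error only. The share averaged 9.996% ± 13.3 in queens and 17.8% ± 13.0 in workers (SD over 4 heads per caste). The difference of -7.79 percentage points was within the spread among heads (two-sided exact permutation test over 70 splits, p = 0.4, where 0.0286 is the smallest possible). The 96hQ head with the most Kr-h1, replicate 3, had nearly all of it as NM_001242470.

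**Figure D2:**
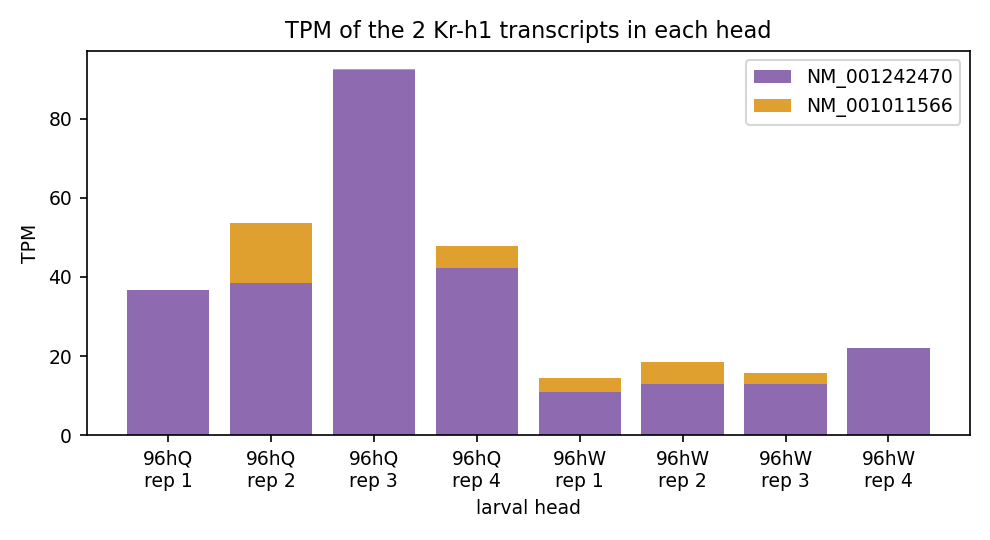
TPM of the 2 transcripts of Kr-h1, stacked, in each of the 8 larval heads (1 bar per head, axis from 0). The purple part, NM_001242470, sets the height in every head, up to 92.3 TPM in 96hQ replicate 3, and the orange part, NM_001011566, reaches at most 15.1 TPM (96hQ replicate 2).

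Jhe, the gene of the enzyme that inactivates juvenile hormone, had the largest difference of the 3 genes and the widest spread. It read 219.0, 1157, 433.5 and 1530 normalized counts in 96hQ replicates 1 to 4 and 1223, 11596, 10586 and 16292 in 96hW replicates 1 to 4. The worker heads 2, 3 and 4 lay far above every queen head, and 96hW replicate 1 lay between the 2 highest queens. The queen mean was 835.0 ± 613.2 and the worker mean 9924 ± 6311 (SD over 4 heads per caste). The fitted log2 fold change was -3.57 ± 0.87 (SE), or 11.9-fold toward workers. The adjusted p of 0.0210 from edgeR missed the threshold, and an exact two-sided permutation test gave p = 0.0571. In 99.3% of the genes tested the fold change was smaller in size.

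Left-out libraries shifted the log2 fold change of Jhe between -4.04 and -3.22, with adjusted p from 0.01002 to 0.0503 in edgeR and 0 calls in 8 fits. Without 96hW replicate 1, the worker head low in hexamerin and Vg RNA, it was -3.94 with an adjusted p of 0.01002, just outside the threshold. Without both libraries that stood apart it was -3.72, with an adjusted p of 0.0137. DESeq2, which called 23.2% of all genes, gave an adjusted p of 0.000254 for all 8 heads. The estimated count of Jhe was whole in 8 of 8 heads (within 0.001), so kallisto gave it no fraction of a read. Those of Kr-h1 and JHBP-1 were whole in 0 of 8. Kr-h1 was not whole even where NM_001011566 was 0 (940.62 in 96hQ replicate 1, 495.27 in 96hW replicate 4), and JHBP-1 has 1 measured transcript. Both gene sums thus hold reads shared with other sequences, and the error of that sharing was not measured.

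Among the worker heads Jhe was low where most of the fat body genes were low. The geometric mean of the other worker heads was 10.3-fold the value of 96hW replicate 1 for Jhe. The same ratio was 9.63 for Hex70a, 9.90 for HEX70b, 8.87 for Hex70c, 8.82 for Hex110 and 9.34 for Vg. Hexamerins are storage proteins that the fat body secretes for use in the pupa, and Vg is the yolk protein vitellogenin. For the iron carrier Tsf1, on the same marker list, the ratio was 0.87, and it was 1.46 for Kr-h1 and 0.82 for JHBP-1. The TPM of Hex70a over that of Jhe lay between 5.60 and 7.70 in the 4 worker heads, over which the TPM of Jhe spanned 11.4-fold. In the queens the same ratio lay between 3.45 and 16.9. The part of the fat body content of each head in the caste difference of Jhe was not tested.

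**Figure D3:**
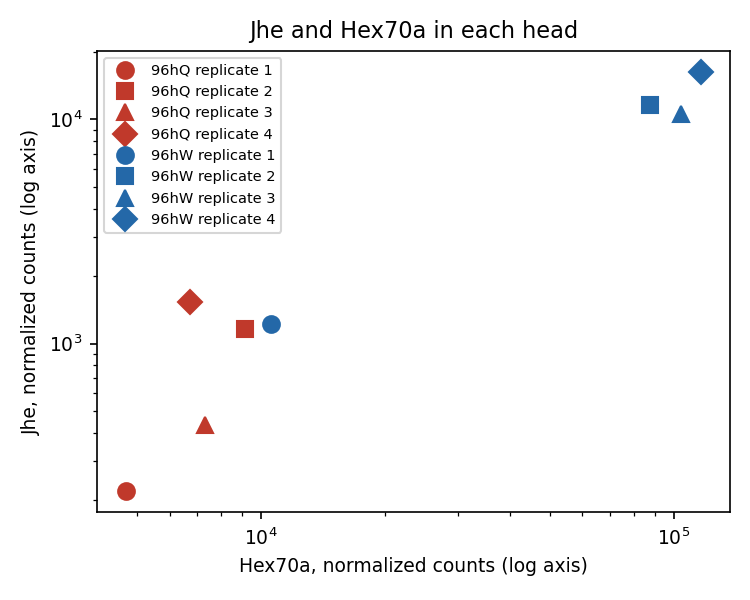
Normalized counts of Jhe against those of the storage protein gene Hex70a, 1 point per head (red 96hQ, blue 96hW, shape by replicate, both axes logarithmic). The worker heads 2 to 4 lie together at 87510 to 116371 counts of Hex70a and 10586 to 16292 of Jhe, and 96hW replicate 1 (10582 and 1223) lies beside the queens.

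JHBP-1, named as a hormone carrier, had higher values in every queen head than in any worker head. It read 6378, 10972, 4078 and 4561 normalized counts in 96hQ replicates 1 to 4 and 2550, 1590, 2020 and 2819 in 96hW replicates 1 to 4. The castes did not overlap, as in 31.9% of all genes tested, with 96hQ replicate 2 the highest head. The queen mean was 6497 ± 3143 and the worker mean 2245 ± 548 (SD over 4 heads per caste). The fitted log2 fold change was 1.53 ± 0.33 (SE), or 2.89-fold. The adjusted p was 0.0143 in edgeR, short of the threshold, and the exact two-sided permutation test gave p = 0.0286, its smallest value. Without 96hQ replicate 3, the lowest queen head for this gene, the log2 fold change was 1.71 and passed with an adjusted p of 0.00966 from edgeR. In the other 7 fits it did not pass, at 1.16 to 1.67. DESeq2, which called 23.2% of all genes, gave an adjusted p of 4.13e-05. The cuticle and neuron markers separate the castes here as they do for Kr-h1, and their part was not tested.

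**Figure D4:**
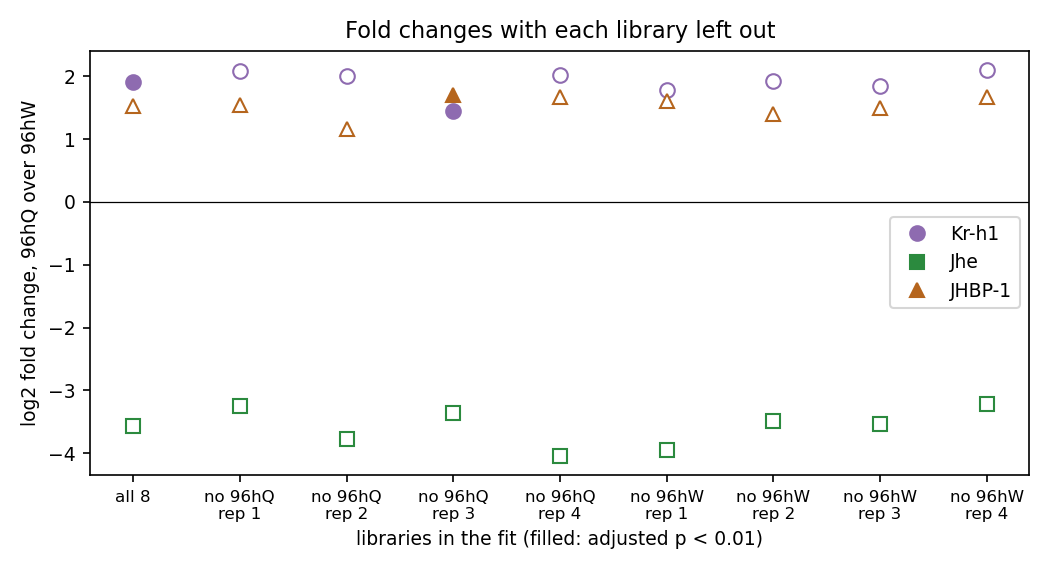
Log2 fold change (96hQ over 96hW) of Kr-h1, Jhe and JHBP-1 with all 8 libraries and with each library left out, filled where the adjusted p from edgeR is under 0.01. No sign changes, Jhe is never filled, and Kr-h1 and JHBP-1 are both filled in the fit without 96hQ replicate 3 (1.45 and 1.71).

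The order of the 3 genes by mean TPM was not the same in the 2 castes. In 96hQ JHBP-1 stood highest at 542 ± 312 TPM, followed by Kr-h1 at 57.7 ± 24.2 and Jhe at 29.9 ± 23.2 (SD over 4 heads). JHBP-1 lay above the other two in every queen head, while Kr-h1 (36.7 to 92.5 TPM) and Jhe (7.51 to 54.8 TPM) overlapped. In 96hW Jhe averaged 369 ± 225 TPM, JHBP-1 203 ± 48.9 and Kr-h1 17.7 ± 3.45. The worker ranges of Jhe (50.7 to 577 TPM) and JHBP-1 (143 to 249 TPM) overlapped, and Kr-h1 (14.4 to 22.2 TPM) lay below both. Averaged over the 8 heads, JHBP-1 exceeded 96.2% of all genes tested in TPM, Jhe 93.2% and Kr-h1 61.5%.

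Ratios within a head, which no scaling between libraries changes, set the castes apart for Jhe against either of the other genes. The TPM of Jhe over that of JHBP-1 was 0.0147, 0.0447, 0.0454 and 0.142 in 96hQ replicates 1 to 4 and 0.203, 3.09, 2.21 and 2.45 in 96hW replicates 1 to 4. Even 96hW replicate 1 lay above every queen head. The mean log2 ratio was -4.46 in 96hQ and 0.44 in 96hW, a difference of -4.90 (exact two-sided permutation test, p = 0.0286, adjusted p = 0.0429 over 3 ratios). These ratios were chosen after the values had been seen, when Jhe was known to differ in the direction opposite to Kr-h1 and JHBP-1. Separation of the castes was thus likely beforehand. The p-values of the 3 ratios add no support to the fold changes of the single genes.

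Kr-h1 over Jhe was 4.89, 1.21, 7.21 and 0.873 in 96hQ replicates 1 to 4 and 0.284, 0.0420, 0.0388 and 0.0384 in 96hW replicates 1 to 4. No queen head fell within the range of the workers, with a mean log2 ratio of 1.31 in 96hQ and -3.94 in 96hW, a difference of 5.25 (exact two-sided permutation test, p = 0.0286, adjusted p = 0.0429). For Kr-h1 over JHBP-1 the castes overlapped, with a difference of 0.35 in mean log2 ratio (exact two-sided permutation test, p = 0.686) that turned to -0.17 without 96hQ replicate 3.

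All 3 genes varied more between heads of 1 caste than most genes. The SD of log2 normalized counts was 0.69 in 96hQ and 0.38 in 96hW for Kr-h1, 1.29 and 1.70 for Jhe, and 0.64 and 0.37 for JHBP-1. The median gene had 0.18 in 96hQ and 0.13 in 96hW. The SD of Jhe exceeded that of 98.4% of genes among workers and 96.5% among queens. Kr-h1 spanned 2.91-fold among queens and 1.87-fold among workers, and JHBP-1 2.69-fold and 1.77-fold, a difference in span between the castes that was not tested.

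Beyond the 3 genes, a list of 66 names of juvenile hormone synthesis, transport, breakdown, receptor, response and upstream genes and of their ecdysone partners matched 17 genes in the reference table, the 3 included. The names include synonyms and variants of spelling. Of these genes, 15 had paired transcripts and were tested. The 2 that did not were the only synthesis genes matched, so synthesis was not covered. Jhe and JHBP-1 were the only breakdown and transport genes matched, and Usp the only receptor gene. The rest were response, upstream and ecdysone partner genes. Among the 12 other than Kr-h1, Jhe and JHBP-1, 0 were called as higher in 96hQ and 2 as higher in 96hW. Of all genes tested, 5.21% were called as higher in 96hQ and 3.40% as higher in 96hW. An unadjusted p under 0.05 was reached by 6 of the 12 and by 41.0% of all genes. The median log2 fold change of the 12 was -0.41, compared with 0.00459 for all genes tested. Of the 12, 5 (the 4 hexamerins and Vg) are also on the fat body marker list and had a median of -2.93, while the other 7 had a median of -0.094 and 0 calls, with 2 at an unadjusted p under 0.05. The part of fat body content in the median of the 12 was not tested, and the median of the 3 genes themselves was 1.53.

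Usp, the nuclear receptor partner of Ecr, stood at -0.40 ± 0.17 (SE) on the log2 scale (edgeR adjusted p = 0.121). Ecr, the ecdysone receptor, had -0.42 (adjusted p = 0.0331). The ecdysone-induced transcription factors E74 and E75 had 0.34 and 0.25, and Br-c, a transcription factor of the pupal programme, had 0.12. E74, E75 and Br-c turned negative without 96hQ replicate 3, at -0.46, -0.33 and -0.14, and also on the log2(TPM + 1) scale. In that head E74 stood 4.02-fold, E75 3.04-fold and Br-c 1.80-fold over the geometric mean of the other queens, as Kr-h1 did at 2.53-fold. Kr-h1 kept its direction without that head, as given above.

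The 2 response genes called were Hex70a and Vg, both higher in 96hW. The log2 fold change of Hex70a was -3.51 (edgeR adjusted p = 0.00889) and Vg -3.99 (adjusted p = 0.00977), beside -3.57 for Jhe. Vg had 4.72 to 6.89 normalized counts in 96hQ and 11.8 to 198.6 in 96hW, and its log2 fold change moved to -3.36 with 96hW replicate 4 left out. It was -0.98 on log2(TPM + 1), a scale that understates low genes. Each passed in 1 of the 8 fits with a library left out, the one without 96hW replicate 1. The remaining hexamerins Hex110, Hex70c and HEX70b had -2.93, -1.98 and -1.15 and did not pass. The insulin-like peptide gene ILP-2 (-0.11) and the insulin receptor gene InR-2 (-0.094), which lie upstream of hormone synthesis in insects, did not pass either, and InR-2 ran from -0.51 (adjusted p = 0.0156 from edgeR) without 96hQ replicate 3 to 0.060 without 96hQ replicate 4.

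**Figure D5:**
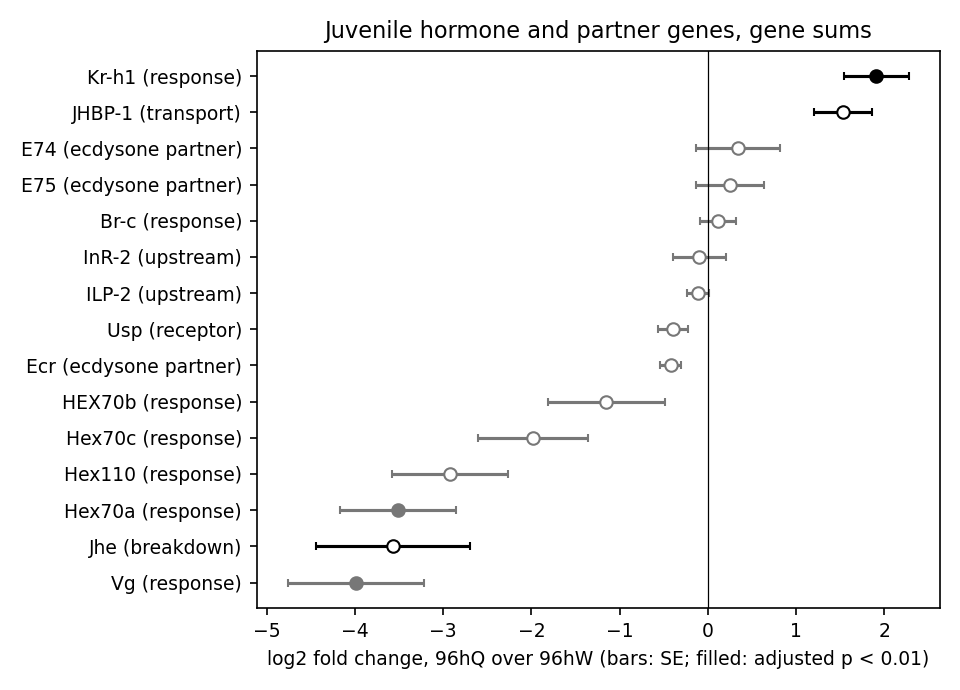
Log2 fold change (96hQ over 96hW) of the 15 genes tested, with the role used to list each in parentheses, bars of 1 SE, black for Kr-h1, Jhe and JHBP-1, grey for the others, and filled at an adjusted p under 0.01 from edgeR. Kr-h1 (1.91) and JHBP-1 (1.53) are the rightmost points, and Jhe (-3.57) lies among the hexamerins and Vg (-3.99).

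The genes whose pattern over the 8 heads was most like that of each member were found by the root mean square difference of centred log2 normalized counts, among 7850 genes. For Kr-h1 these were C1q-VP (0.27), Grp (0.29) and LOC409962 (0.29), where the median gene differed by 1.05. For Jhe they were LOC725922 (0.50), Hex70a (0.68) and Vg (0.70), where the median gene differed by 2.18. LOC725922 had 185.8 normalized counts in 96hW replicate 1 and 1333, 1353 and 1073 in replicates 2 to 4, against 42.5 to 144.7 in 96hQ. For JHBP-1 they were LOC411700 (0.38), LOC100577317 (0.38) and LOC412813 (0.40), where the median gene differed by 0.89.

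The nearest tested genes around the 3 members were taken as well, 2 on each side in the order of the reference table. Genes that were not tested were skipped. Of the 12 taken, 3 were called, beside 8.61% of all genes tested. Of the 4 around Kr-h1, LOC411637 had -0.41 on the log2 scale (edgeR adjusted p = 0.00587) and LOC100578059 had 0.76 (adjusted p = 0.00642), in opposite directions. Of the 4 around Jhe, LOC726175 was called, at -0.64 (edgeR adjusted p = 0.00266). The esterase gene Est-6 was the nearest tested gene on 1 side. It averaged 8.40 normalized counts in queens and 9.45 in workers, with a log2 fold change of -0.15. Around JHBP-1 0 of 4 were called, at log2 fold changes from -0.32 to 1.30.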

How the data were processed

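RNA-seq of 8 single larval heads, 4 96hQ and 4 96hW, was analysed. The authors pseudoaligned strand-specific paired-end reads with kallisto (version not given in the sources used here), and the deposited files hold estimated counts, TPM and lengths per transcript. The deposited estimated counts were not normalized between libraries, while TPM, as deposited, sum to a fixed total in each library. Transcripts were paired with genes by accession root through a RefSeq table of another assembly, Amel_HAv3.1, used for names and gene order only: 17723 of 28739 paired with 9161 genes and held 78.1% to 81.0% of the counts of a library.

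Counts were summed per gene, rounded and tested with edgeR 4.0.16 (R 4.3.3; TMM, at least 5 counts in at least 4 libraries, quasi-likelihood F test, caste only, Benjamini-Hochberg over all features, threshold 0.01). Sleuth, the test of the authors, was not run. Normalized counts are TMM-scaled to the mean library total. The fit was tested on simulated data.

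The genes named were Kr-h1, Jhe, JHBP-1, their transcripts and a list of pathway names. Also named were the 3 most alike genes of each member, at a mean of at least 10 normalized counts. So were the 2 nearest tested genes on each side. Members and lists were chosen with earlier results of these data known. Est-6 and LOC725922 were given values after these had been seen. Alternatives were other size factors, filters, DESeq2 1.42.0, limma 3.58.1 (voom, log2 TPM plus 1 or 0.1), unrounded counts, another pairing, a replicate block, omitted libraries and a threshold of 0.05. Within-head ratios and scaling without marker genes were added after seeing the data. Promoter and protein sequences were not analysed here.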

Additional observations from a re-analysis of the deposited data

Results flagged for a closer look

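Among 42 groups of 4 heads (the gene sums of the 15 genes, the 2 Kr-h1 transcripts, their share and 3 ratios, in each caste), 9 held a head far from the others by Dixon's test. Chance flags about 1 in 20 independent groups of normal values. These groups share genes and heads, and most hold counts on a linear scale, so the 9 cannot be read against that rate. In 96hQ replicate 3, the head rich in cuticle RNA, Kr-h1 had 2588 normalized counts and the next queen 1107, a gap of 0.87 of the range of the group. Its transcript NM_001242470 had 2584 in that head and 996.4 in the next, a gap of 0.92, and both values rest on the same reads. Of the ecdysone partners, E74 had 11786 there and 3426 in the next queen, and E75 had 14473 and 5663. Br-c, a transcription factor of the pupal programme, had 6254 and 3543.

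In 96hW replicate 1, the worker head low in hexamerin and Vg RNA, the log2 TPM ratio of Jhe over JHBP-1 was -2.30. The next lowest worker had 1.15. The log2 ratio of Kr-h1 over Jhe was -1.82 there and -4.57 in the next worker. Usp had 4282 normalized counts in the same head and 3320 in the next. In 96hW replicate 3, Br-c had 4423 and the next worker 3693.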

How the results depend on the processing

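The direction of Kr-h1, Jhe and JHBP-1 held in all 23 alternatives tried for each, with log2 fold changes from 1.32 to 2.10, from -4.04 to -3.22 and from 1.16 to 1.77. Of the 23, the threshold of 0.05 uses the main fit itself and so could not change a direction. The call of Kr-h1 did not hold throughout, and its adjusted p in the main edgeR fit, 0.00977, lay close to the threshold. In edgeR it became 0.0101 with DESeq2 size factors (1.90) and 0.0101 with no filter (1.91). It was 0.0144 with unpaired transcripts kept (1.94) and 0.0135 with pairing by the same version (1.84). In limma it was 0.0147 with voom (1.80) and 0.0118 on log2(TPM + 0.1) (1.63). The cause of these shifts was not tested. DESeq2 called Jhe (-3.58), JHBP-1 (1.53), NM_001011563 (-3.54), NM_001011640 (1.57) and NM_001242470 (2.05), and a threshold of 0.05 called Jhe (-3.57), JHBP-1 (1.53), NM_001011640 (1.58) and NM_001242470 (2.05).

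Over all genes, replicate numbers did not pair the heads. Same-numbered deviations correlated at 0.08, 0.03, -0.02 and -0.06, and 2 of 8 heads correlated best with their own number. With the replicate block in edgeR, Kr-h1 had 1.80 and an adjusted p of 0.0286, and JHBP-1 had 1.44 and 0.0549. Jhe had -3.46 and an adjusted p of 0.0163, with an SE of 0.37 where the fit without the block had 0.87. With the block, 10 genes were called in place of 702.

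NM_001011566 turned negative with limma-voom (-0.079), log2(TPM + 0.1) (-0.29), the block (-0.60) and, with libraries left out, ranged from -0.44 to 1.49. Leaving out each library gave 1.45 to 2.10 for Kr-h1, -4.04 to -3.22 for Jhe, 1.16 to 1.71 for JHBP-1, -4.00 to -3.18 for NM_001011563, 1.19 to 1.75 for NM_001011640, 1.51 to 2.37 for NM_001242470, -5.82 to -4.36 for the log2 ratio of Jhe over JHBP-1, 4.74 to 5.96 for Kr-h1 over Jhe, -0.17 to 0.70 for Kr-h1 over JHBP-1 and -13.9 to -3.74 percentage points for the share of NM_001011566 (-6.83 by counts).

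Of the 15 pathway genes with the 3 members, 1 was called higher in 96hQ, beside 5.21% of all genes tested. This count was 2 at 0.05 and with DESeq2, 0 with DESeq2 size factors, no filter, limma-voom, log2(TPM + 0.1), the block, unpaired transcripts kept and the same version, and 0 to 2 with a library left out. The count higher in 96hW was 2, beside 3.40% of all genes tested. It became 6 at 0.05, 5 with DESeq2 and 4 with both libraries that stood apart omitted. It was 1 with no filter. With limma-voom, log2(TPM + 1), log2(TPM + 0.1), the block, unpaired transcripts kept and the same version it was 0. With a library left out it ran from 0 to 4. DESeq2 called 23.2% of all genes in either direction, and the share of all genes at 0.05 was not counted. The median over all genes tested shifted by -0.14 on log2(TPM + 1). On that scale and on log2(TPM + 0.1), the values were -0.20 and -0.20 for E74, -0.13 and -0.13 for E75 and -0.088 and -0.090 for Br-c, and with both libraries omitted -0.51, -0.41 and -0.17. Pairing by the same version gave -0.26 for Br-c. With a library left out, E74 ranged from -0.46 to 0.55, E75 from -0.33 to 0.44, Br-c from -0.14 to 0.21, InR-2 from -0.51 to 0.060 (0.037 without 96hQ replicate 2) and Vg from -4.36 to -3.36.

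Over all genes, 425 were called higher in 96hQ and 277 in 96hW. These counts became 1035 and 858 with DESeq2, 76 and 163 with log2(TPM + 1), 52 and 94 with log2(TPM + 0.1) and 10 and 0 with the block, and both together ran from 142 to 774 with a library left out. For transcripts the main count of 254 became 2289 with DESeq2. With 4 heads per caste the permutation p cannot fall below 0.0286. NM_001011566 never exceeded 281.4 normalized counts, and the error of sharing reads between transcripts was not measured.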
